A study of Mus musculus with 9 samples.

Results

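A set of 10 genes of the adipogenic programme was followed across ST2 cells that had taken up neutrophils: the transcription factor genes Pparg, Cebpa, Cebpb, Cebpd, Klf15, Ebf1, Zfp423 and Zfp467, the lipoprotein lipase gene Lpl and the lipid droplet coat gene Plin2. They were chosen by symbol for their known roles, with earlier results of these data known, and made up 10 of the 55453 gene rows of the count table. ST2 is a wild-type mouse stromal line that grew out of a marrow culture of the BC8 strain, so all libraries come from 1 line. RNA was sequenced from 3 groups of 3 libraries: ST2 cells fed for 24 h and sorted for uptake, ST2 cells fed for 3 h and sorted for uptake, and unfed ST2 cells at 24 h. The meal was human neutrophils kept frozen (18 h or more) and labelled with the dye eF670, given at 10 neutrophils per ST2 cell, and the sorted cells carried at least the dye signal of a whole neutrophil. There was no unfed group at 3 h, so hours in culture and feeding cannot be told apart in the comparison of fed 3 h with unfed cells. Feeding and the sort for uptake cannot be told apart in either comparison with unfed cells. Replicates are numbered, but nothing says that they were separate cultures, so p-values measure the spread between these libraries, which may be technical.

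PPARG, a nuclear receptor that binds DNA as a partner of RXR, is required for fat cell differentiation. In the usual cascade, C/EBP beta and C/EBP delta appear first and switch on Pparg and Cebpa, whose products then maintain each other and activate the genes of lipid uptake and storage. KLF15, EBF1, ZFP423 and ZFP467 feed into the same cascade. LPL releases fatty acids from circulating triglyceride, and PLIN2 coats the droplets in which cells store it. Bone marrow stromal cells can become fat cells or bone-forming cells, and many express Lpl and these factors at a low or moderate level without being fat cells.

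The libraries held 44442664 to 55971275 counts each, and all 10 genes passed the filter on low counts, which kept 13568 genes. Levels are CPM, counts scaled to a common library total. Of 10 marrow stromal cell markers, 9 were tested, and their summed level was 31930 to 33690 CPM in fed 24 h libraries, 25762 to 26414 CPM in fed 3 h libraries and 29053 to 31249 CPM in unfed libraries. Thy1 was an exception, with 0, 1 and 0 counts over the fed 24 h, fed 3 h and unfed groups. Of 14 neutrophil markers 2 were tested, and S100a9 and Ngp were at 0 in every library. These markers are mouse genes and the meal was human, so their counts do not show whether RNA of the meal was present. Of 10 macrophage markers 4 were tested, and Adgre1, C1qa and C1qb were at 0. The 10 held 4244 counts over the fed 24 h, 4088 over the fed 3 h and 3392 over the unfed group. By the rule given below, 1 of the 4 was called higher in fed 24 h against unfed cells. In fed 3 h against unfed cells 3 were called higher and 1 lower, where all tested genes had 25.1% and 25.5%. Of 6 endothelial markers 1 was tested, with Kdr at 0. Of 8 mature fat cell markers 2 were tested, Fabp4, with 1967 counts over the fed 24 h, 646 over the fed 3 h and 1426 over the unfed group, and Plin1, with 32, 0 and 17 counts. Lep and Retn were at 0, and Adipoq had 18, 11 and 15 counts over the fed 24 h, fed 3 h and unfed groups.

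Promoter windows of 300 bases, from 250 before to 50 after an annotated start, were read from RefSeq (GRCm38.p6) for 8 of the 10 genes (all but Lpl and Cebpd), which gave 12 windows. Windows of 4 genes are shown because these genes gave 4 different responses below: Pparg was higher at 3 h, Cebpa and Klf15 were lower at 3 h, with Cebpa also higher at 24 h, and Cebpb was called in no comparison. Capitals mark matches to the motifs searched.
Pparg, the most downstream of 3 starts, chr6:115421816-115422115, plus strand: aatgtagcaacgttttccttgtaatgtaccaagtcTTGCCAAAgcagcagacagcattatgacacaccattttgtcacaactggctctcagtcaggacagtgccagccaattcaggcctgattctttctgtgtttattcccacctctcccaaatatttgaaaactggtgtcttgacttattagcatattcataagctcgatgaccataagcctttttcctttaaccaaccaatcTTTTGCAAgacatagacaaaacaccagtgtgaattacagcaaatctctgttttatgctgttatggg
Cebpa, chr7:35119043-35119342, plus strand: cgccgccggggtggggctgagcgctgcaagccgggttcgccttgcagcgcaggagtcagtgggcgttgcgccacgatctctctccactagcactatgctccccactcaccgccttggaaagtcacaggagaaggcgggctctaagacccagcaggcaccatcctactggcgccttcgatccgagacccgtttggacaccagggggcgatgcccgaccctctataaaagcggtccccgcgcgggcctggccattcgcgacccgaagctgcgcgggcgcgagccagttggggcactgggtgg
Klf15, chr6:90462326-90462625, plus strand: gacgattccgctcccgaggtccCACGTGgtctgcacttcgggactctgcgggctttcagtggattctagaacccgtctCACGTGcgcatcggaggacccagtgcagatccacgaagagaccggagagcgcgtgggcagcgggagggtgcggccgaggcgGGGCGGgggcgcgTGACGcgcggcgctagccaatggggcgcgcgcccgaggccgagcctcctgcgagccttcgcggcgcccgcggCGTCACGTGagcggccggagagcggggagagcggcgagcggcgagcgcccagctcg
Cebpb, chr2:167688665-167688964, plus strand: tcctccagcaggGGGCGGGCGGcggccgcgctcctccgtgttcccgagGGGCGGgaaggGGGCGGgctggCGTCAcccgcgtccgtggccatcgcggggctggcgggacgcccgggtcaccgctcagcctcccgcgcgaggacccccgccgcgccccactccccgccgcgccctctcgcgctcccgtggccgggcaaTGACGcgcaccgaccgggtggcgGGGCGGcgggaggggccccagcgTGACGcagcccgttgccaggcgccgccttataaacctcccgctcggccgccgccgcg

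A set of 8 motifs was searched on both strands. The C/EBP motif TTGCNNAA was found in 10.8% of all 32851 mouse windows in the table, and in the windows of Pparg and Zfp423 among these genes. The Pparg window shown holds it at 215 bases and at 16 bases before the start. The E-box CACGTG was in 7.15% of all windows, and in those of Klf15 and Plin2 among these genes. The Klf15 window holds 3 copies, the last of which overlaps a match to TGACG. These letters, the core of the cyclic AMP response element, were in 20.8% of all windows. The Cebpb window holds 3 copies, the Klf15 window 2 and an Ebf1 window 1. The GC box GGGCGG was in 35.7% of all windows and in 8 of the 12 windows here. These belong to Pparg, Cebpb, Klf15, Zfp423, Zfp467 and Plin2, and the Cebpb window holds 5 copies. The Cebpa window matched none of the 8. AGGTCA, the core letters of a nuclear receptor site, was in 16.3% of all windows, and was found in windows of Pparg, Zfp423 and Plin2. The full cyclic AMP response element TGACGTCA (1.79% of all windows), the AP-1 motif TGANTCA (7.81%) and the PPAR/RXR direct repeat with 1 spacer base (0.0396%) were in 0 of the 12 windows. GC content was 40.3% in the Pparg window shown, 67.3% for Cebpa, 73.3% for Klf15 and 80.7% for Cebpb, against a median of 52.7% over all windows.

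The question of the first comparison is what these genes did 24 h after feeding. Lpl, Zfp423, Ebf1 and Cebpa were higher in fed 24 h cells than in unfed cells, by 1.62-fold, 1.77-fold, 1.27-fold and 1.18-fold, and the other 6 genes were not called. With edgeR's quasi-likelihood test, a gene was called at a Benjamini-Hochberg adjusted p under 0.05 over all 13568 genes. By that rule 30.8% of all tested genes were called, 14.9% higher and 15.9% lower (2159 genes, or 1426 without fed 24 h replicate 1), so 4 of 10 called is near the share over all genes. At 3 h the picture was different, with 9 of 10 genes called against 50.6% of all tested genes. These 9 include the low-count genes Klf15 and Zfp467, which a filter of at least 1 CPM in 3 libraries left out. With that filter 7 of the 10 genes were called. Against unfed cells 7 genes were lower in fed 3 h cells (25.5% of all tested genes were lower): Cebpa, Cebpd, Klf15, Ebf1, Zfp423, Zfp467 and Lpl. The 2 that were higher (25.1% of all tested genes) were Pparg and Plin2. Against fed 3 h cells, the fed 24 h cells had all 7 of those genes higher (30.8% of all tested genes) and Pparg and Plin2 lower (30.2%), with 60.9% of all tested genes called. The 3 comparisons share libraries, so the last is not separate evidence for the others. The median log2 fold change of the 10 genes was 0.19 in fed 24 h against unfed cells, -0.60 in fed 3 h against unfed cells and 0.97 in fed 24 h against fed 3 h cells, where the medians over all tested genes were within 0.01 of 0.

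**Figure D1:**
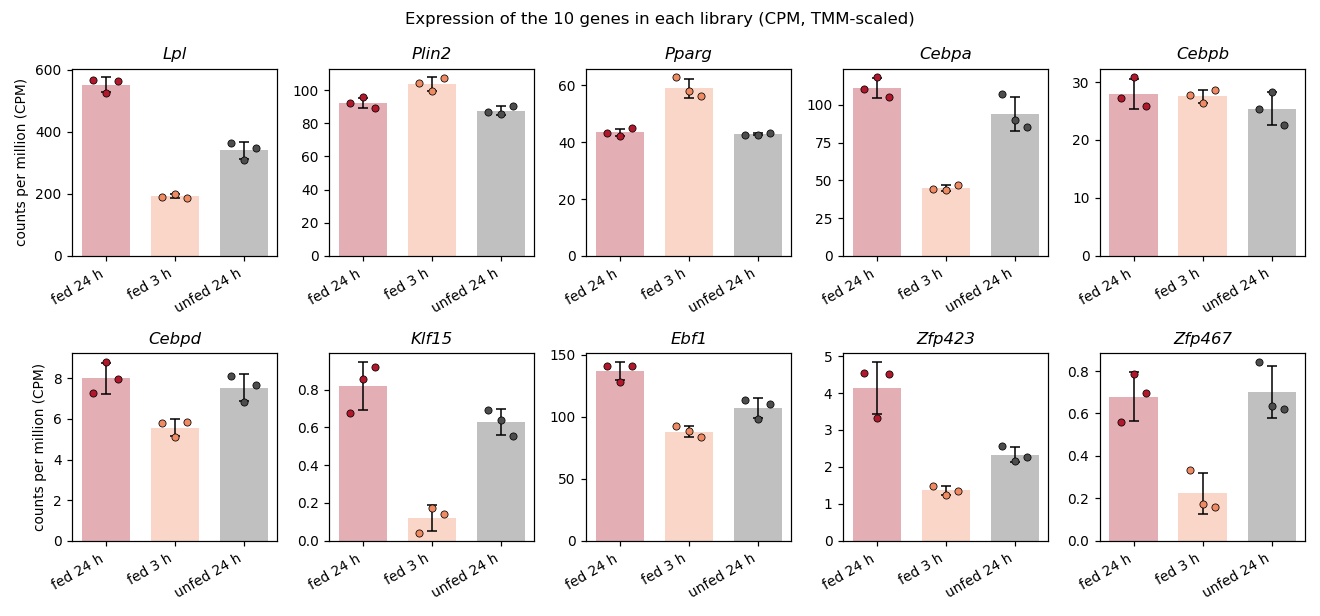
Level of each of the 10 genes (y axis, CPM, a scale of its own for each panel, starting at 0) in the 9 libraries, with fed 24 h, fed 3 h and unfed 24 h from left to right. Points are libraries, bars are means and error bars are SD (n = 3); Lpl had 526 to 567 CPM in fed 24 h, 186 to 199 CPM in fed 3 h and 309 to 362 CPM in unfed libraries, with no overlap.

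Pparg (ENSMUSG00000000440.12, chr6:115360951-115490399, plus strand) is transcribed in the mouse from several promoters, which give the protein forms PPARG1 and PPARG2, and the counts are for the gene as a whole. Its level was 43.2, 42.3 and 44.9 CPM in fed 24 h libraries, 62.8, 58.2 and 56.3 CPM in fed 3 h libraries and 42.5, 42.7 and 43.3 CPM in unfed libraries. The 3 fed 3 h libraries lay above all others, and the fed 24 h and unfed ranges overlapped. Pparg rose 1.38-fold in fed 3 h against unfed cells (log2 0.46, SE 0.0492, adjusted p = 1.6e-06) and was lower in fed 24 h than in fed 3 h cells (log2 -0.44, adjusted p = 1.14e-06). Between fed 24 h and unfed cells the log2 difference was 0.02, with a 95% interval of -0.0851 to 0.125 (adjusted p = 0.790).

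Cebpa (chr7:35119293-35121928, plus strand) encodes C/EBP alpha, the partner of PPARG in fat cell maintenance. Its level was 111, 118 and 105 CPM in fed 24 h libraries, 44.3, 43.4 and 46.9 CPM in fed 3 h libraries and 107, 89.9 and 85.2 CPM in unfed libraries. All 3 fed 3 h libraries were lower than the other 6, while 1 unfed library lay within the fed 24 h range. Cebpa fell 2.09-fold in fed 3 h against unfed cells (log2 -1.07, SE 0.0726, adjusted p = 1.52e-08). It was 2.48-fold higher in fed 24 h than in fed 3 h cells (log2 1.31, adjusted p = 6.44e-10). The 1.18-fold rise in fed 24 h against unfed cells (log2 0.24, SE 0.0699, adjusted p = 0.0156) rested on single libraries. Cebpa also overlaps the antisense gene Gm45091 by 51 bases, which held 65 counts in all against 37391 for Cebpa. The 24 h call missed the threshold without fed 24 h replicate 2 (log2 0.20, adjusted p = 0.0712), without unfed replicate 2 (0.21, 0.0615) and without unfed replicate 3 (0.18, 0.0833), within a range of 0.18 to 0.35 over all alternatives.

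Pparg and Cebpa thus moved in opposite directions at 3 h. Per length, the ratio of Pparg to Cebpa was 0.484 ± 0.0427 in fed 24 h cells, 1.63 ± 0.137 in fed 3 h cells and 0.569 ± 0.0707 in unfed cells (SD, n = 3 each). This ratio was chosen after the values were seen and has no test.

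Cebpb (chr2:167688915-167690418, plus strand), whose product is an early activator of the cascade, was called in no comparison. It had 27.3, 30.8 and 25.8 CPM in fed 24 h libraries, 27.7, 26.3 and 28.6 CPM in fed 3 h libraries and 25.3, 28.2 and 22.6 CPM in unfed libraries, and all groups overlapped. The log2 difference was 0.14 in fed 24 h against unfed cells (95% interval -0.0263 to 0.305, adjusted p = 0.193), 0.12 in fed 3 h against unfed cells (-0.0501 to 0.283, adjusted p = 0.232) and 0.02 in fed 24 h against fed 3 h cells (-0.142 to 0.187, adjusted p = 0.815). Without unfed replicate 2, the highest unfed library, both differences from unfed cells passed the threshold (log2 0.23, adjusted p = 0.0497 at 24 h and log2 0.20, adjusted p = 0.0478 at 3 h). Cebpb overlaps Tmem189 on the opposite strand by 312 bases. Whether the counting used strand is unresolved, so its counts are uncertain to that extent.

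Cebpd (chr16:15887286-15891031, plus strand), the other early C/EBP gene, had 7.26, 8.78 and 7.98 CPM in fed 24 h libraries, 5.81, 5.09 and 5.84 CPM in fed 3 h libraries and 8.13, 6.82 and 7.67 CPM in unfed libraries. The fed 3 h libraries were the lowest, and fed 24 h and unfed libraries overlapped. Cebpd fell in fed 3 h against unfed cells (log2 -0.43, SE 0.101, adjusted p = 0.00212) and was higher in fed 24 h than in fed 3 h cells (log2 0.52, SE 0.0998, adjusted p = 0.000293). At 24 h its log2 difference from unfed cells was 0.09 (95% interval -0.119 to 0.296, adjusted p = 0.525). Cebpd shares 562 bases with Spidr on the opposite strand, and Spidr differed by log2 -0.15 in fed 3 h against unfed cells (adjusted p = 0.0300). The 2 early C/EBP genes therefore did not share a call at 3 h, although the difference between them was not tested.

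The remaining 4 factors act beside the C/EBP cascade. KLF15 is a Krüppel-like zinc finger factor that promotes adipogenesis, and Klf15 (chr6:90462576-90475238, plus strand) was covered by few reads. It had 34, 48 and 49 counts in fed 24 h libraries, 2, 8 and 7 counts in fed 3 h libraries and 32, 31 and 25 counts in unfed libraries. No fed 3 h library came near the other 6. The mean level was 0.818 ± 0.125 CPM in fed 24 h cells, 0.119 ± 0.0686 CPM in fed 3 h cells and 0.628 ± 0.0676 CPM in unfed cells (SD, n = 3 each). Klf15 fell 5.22-fold in fed 3 h against unfed cells (log2 -2.38, 95% interval -3.17 to -1.6, adjusted p = 6.66e-05). This was the largest change of the 10 genes in that comparison, and 0.63% of all tested genes changed more. Klf15 passed the filter on low counts only through the fed 24 h and unfed libraries, which favours a low 3 h level and a high rank. It was 6.8-fold higher in fed 24 h than in fed 3 h cells (log2 2.77, SE 0.351, adjusted p = 5.15e-06). Counts this low leave the 24 h difference wide, at log2 0.38 with an interval of -0.175 to 0.941 (adjusted p = 0.291).

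Zfp467 (chr6:48427697-48445825, minus strand) encodes a zinc finger protein that favours fat cell over bone cell fate in marrow stroma. It had 28, 44 and 37 counts in fed 24 h libraries, 16, 8 and 8 counts in fed 3 h libraries and 39, 31 and 28 counts in unfed libraries. The fed 3 h libraries lay below the rest, and the other groups covered the same range. Zfp467 passed the filter on low counts mainly through those other groups, which favours a low 3 h level. Zfp467 fell 3.12-fold in fed 3 h against unfed cells (log2 -1.64, SE 0.32, adjusted p = 0.000518) and was higher in fed 24 h than in fed 3 h cells (log2 1.60, adjusted p = 0.000386). In fed 24 h against unfed cells the log2 difference was -0.04 (95% interval -0.597 to 0.52, adjusted p = 0.930), and its sign depended on the libraries included.

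Zfp423 (chr8:87661810-87959595, minus strand) encodes the zinc finger factor that commits cells to the preadipocyte state. It had 228, 186 and 241 counts in fed 24 h libraries, 71, 57 and 68 counts in fed 3 h libraries and 119, 105 and 102 counts in unfed libraries. The 3 groups did not overlap, with fed 24 h highest and fed 3 h lowest. Mean levels were 4.13 ± 0.701 CPM in fed 24 h cells, 1.36 ± 0.124 CPM in fed 3 h cells and 2.33 ± 0.211 CPM in unfed cells (SD, n = 3 each). Zfp423 rose 1.77-fold in fed 24 h against unfed cells (log2 0.82, SE 0.148, adjusted p = 0.000828) and fell 1.71-fold in fed 3 h against unfed cells (log2 -0.77, SE 0.166, adjusted p = 0.00115). It was 3.02-fold higher in fed 24 h than in fed 3 h cells (log2 1.60, adjusted p = 3.48e-07).

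Ebf1 (chr11:44617317-45008091, plus strand) encodes early B cell factor 1, which also promotes fat cell formation and is abundant in marrow stroma. Its level was 141, 129 and 141 CPM in fed 24 h libraries, 92.3, 88.5 and 83.6 CPM in fed 3 h libraries and 113, 98.2 and 111 CPM in unfed libraries. As for Zfp423, the 3 groups did not overlap and had the same order. Ebf1 rose 1.27-fold in fed 24 h against unfed cells (log2 0.35, SE 0.0576, adjusted p = 0.000444) and fell in fed 3 h against unfed cells (log2 -0.29, SE 0.0583, adjusted p = 0.000764). The difference of fed 24 h from fed 3 h cells was log2 0.63 (SE 0.058, adjusted p = 1.47e-07).

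**Figure D2:**
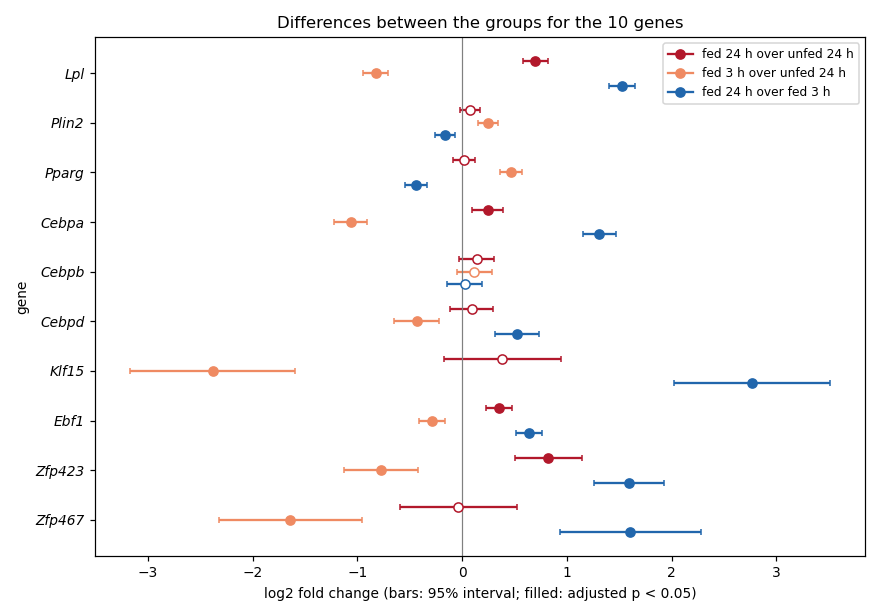
Log2 fold change (x axis) of the 10 genes in the 3 comparisons, with 95% intervals. Filled points passed an adjusted p of 0.05; Klf15 and Zfp467 had the widest intervals, and Cebpb was open in all 3 comparisons.

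Lpl (ENSMUSG00000015568.16, chr8:68880491-68907448, plus strand) encodes the lipase itself, and per length its level was the highest of the 10 genes in fed 24 h and unfed cells. It had 28416, 29435 and 30039 counts in fed 24 h libraries, 9082, 9142 and 9312 counts in fed 3 h libraries and 16796, 15042 and 15691 counts in unfed libraries. These were 567, 526 and 564 CPM in fed 24 h libraries, 190, 199 and 186 CPM in fed 3 h libraries and 362, 309 and 349 CPM in unfed libraries. Each group was narrow and none overlapped, with fed 24 h highest and fed 3 h lowest. Lpl rose 1.62-fold in fed 24 h against unfed cells (log2 0.70, SE 0.0558, 95% interval 0.58 to 0.818, adjusted p = 2.2e-06), where 4.44% of tested genes changed more. It fell 1.77-fold in fed 3 h against unfed cells (log2 -0.83, SE 0.0564, adjusted p = 1.55e-08). Between fed 24 h and fed 3 h cells it differed 2.88-fold (log2 1.53, SE 0.057, adjusted p = 1.64e-11). Its calls and directions held in every alternative run.

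Plin2 (chr4:86648386-86670060, minus strand) had 91.9, 95.6 and 89.1 CPM in fed 24 h libraries, 104, 99.2 and 107 CPM in fed 3 h libraries and 87, 85.4 and 90.4 CPM in unfed libraries. Its changes were small, with the 3 fed 3 h libraries above the other 6. Plin2 rose 1.18-fold in fed 3 h against unfed cells (log2 0.24, SE 0.0451, adjusted p = 0.00036) and was lower in fed 24 h than in fed 3 h cells (log2 -0.17, SE 0.0449, adjusted p = 0.0043). At 24 h its log2 difference from unfed cells was 0.07 (95% interval -0.0218 to 0.17, adjusted p = 0.232). The lipase and the droplet coat gene thus had opposite calls at 3 h.

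The levels of different genes can be set side by side only per length, here as CPM per kilobase of the longest protein-coding transcript. The order in fed 24 h cells was Lpl (134), Plin2 (48.8), Cebpa (42.4), Ebf1 (22.9), Pparg (20.4), Cebpb (18.6), Cebpd (2.14), Zfp423 (0.842), Klf15 (0.330) and Zfp467 (0.188). Of these neighbours only Pparg and Cebpb overlapped between libraries. In fed 3 h cells Plin2 (54.8) stood before Lpl (46.6), followed by Pparg (27.8), Cebpb (18.3), Cebpa (17.1), Ebf1 (14.7), Cebpd (1.49), Zfp423 (0.278), Zfp467 (0.0616) and Klf15 (0.0478). There, Cebpb overlapped Cebpa, and Zfp467 overlapped Klf15. Unfed cells had the order Lpl (82.6), Plin2 (46.4), Cebpa (35.8), Pparg (20.2), Ebf1 (18.0), Cebpb (16.9), Cebpd (2.01), Zfp423 (0.475), Klf15 (0.253) and Zfp467 (0.193), with overlap of Ebf1 with Cebpb and of Klf15 with Zfp467. The order depends on the length used: over the union of all annotated exons, Cebpa stood 2nd in fed 24 h, 5th in fed 3 h and 1st in unfed cells. The ratio of Lpl to Plin2 per length was 2.75 ± 0.201 in fed 24 h cells, 0.851 ± 0.0626 in fed 3 h cells and 1.78 ± 0.125 in unfed cells (SD, n = 3 each, chosen after the values were seen).

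**Figure D3:**
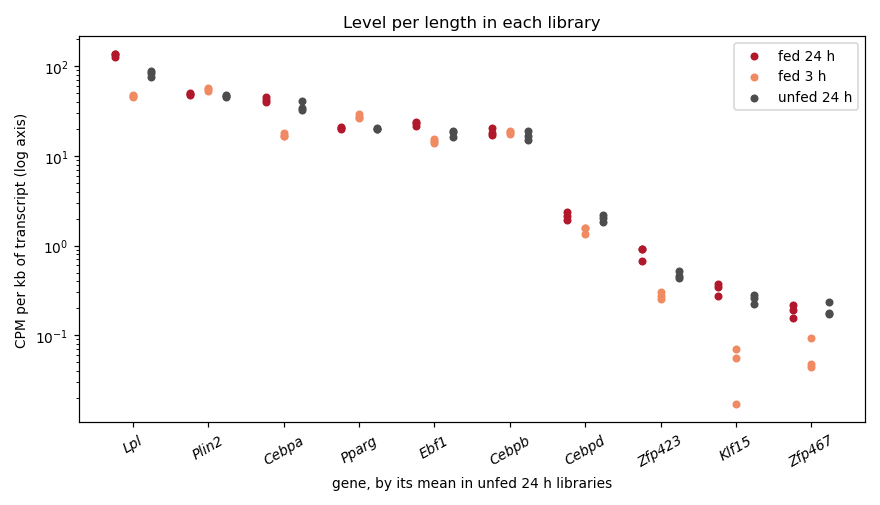
Level per length (y axis, CPM per kilobase of the longest protein-coding transcript, log scale) of the 10 genes, ordered along the x axis by their mean in unfed cells. Points are libraries of fed 24 h, fed 3 h and unfed 24 h cells. Lpl reached 134 on average in fed 24 h cells, and Zfp423, Klf15 and Zfp467 lay below 1 in every group.

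Against 9432 other tested genes with a mean of at least 5 CPM, pseudogenes and uncharacterised clones left out, likeness was measured as the Pearson correlation of log2(CPM + 0.5) over the 9 libraries. The libraries share 3 groups, so these values describe a common pattern and carry no test. Lpl was most like Epas1 (r = 0.998), C1s1 (r = 0.998) and Abi3bp (r = 0.997). Epas1, which encodes the hypoxia factor HIF-2 alpha, averaged 71.9 CPM in fed 24 h cells, 20.9 CPM in fed 3 h cells and 40.2 CPM in unfed cells. Pparg was most like Ext1 (r = 0.996), a heparan sulfate polymerase gene with 175 CPM in fed 24 h cells, 271 CPM in fed 3 h cells and 169 CPM in unfed cells. Cebpb reached at most r = 0.932, with Cd2bp2. Among the 10 genes themselves, Ebf1, Zfp423 and Lpl had pairwise r of 0.977 to 0.982, Cebpa and Klf15 had r = 0.970, and Pparg and Cebpa had r = -0.958.

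Genes around the 10 were counted in 7 lists, set against the shares of all tested genes that were called: 14.9% higher and 15.9% lower in fed 24 h against unfed cells, 25.1% and 25.5% in fed 3 h against unfed cells, and 30.8% and 30.2% in fed 24 h against fed 3 h cells. Some genes stand in several lists, so the counts of different lists are not separate results. In the list of PPARG targets and mature fat cell genes, 28 of 44 were tested. The list also holds fatty acid synthesis genes such as Fasn, Acly and Acaca, so its counts do not measure PPARG activity alone. Against unfed cells at 24 h, 3 were higher and 5 lower (median log2 -0.02), and in fed 3 h against unfed cells 3 were higher and 18 lower (median -0.24), or 10.7% and 64.3% of the list. The 3 higher at 24 h became 5 without unfed replicate 1 and 1 without unfed replicate 3. Fabp4, which encodes a fatty acid carrier, had 12.3 ± 0.578 CPM in fed 24 h cells, 4.48 ± 0.716 CPM in fed 3 h cells and 10.2 ± 0.481 CPM in unfed cells (SD, n = 3 each). It fell in fed 3 h against unfed cells (log2 -1.18, adjusted p = 1.53e-07). Its rise in fed 24 h against unfed cells (log2 0.27, adjusted p = 0.0323) missed the threshold without fed 24 h replicate 2 or 3 or unfed replicate 2 or 3. Scd1, a fatty acid desaturase gene, fell in fed 3 h against unfed cells (log2 -0.87, adjusted p = 2.5e-08) and differed by log2 0.11 in fed 24 h against unfed cells (adjusted p = 0.185). Fasn, the fatty acid synthase gene, fell in fed 24 h against unfed cells, to 667 ± 53.3 CPM against 859 ± 71.3 CPM (log2 -0.36, adjusted p = 0.000608), and in fed 3 h against unfed cells as well (log2 -0.42, adjusted p = 4.4e-05). Angptl4, a secreted inhibitor of LPL, rose in fed 3 h against unfed cells, to 58.0 ± 0.976 CPM against 38.4 ± 4.9 CPM (log2 0.59, adjusted p = 3.55e-06), and differed by log2 -0.16 at 24 h (adjusted p = 0.102). The 16 genes of this list that were not tested held 0 to 82 counts each over all 9 libraries, among them Adipoq with 44, Cidec with 10 and Cd36 with 2. Other mature fat cell genes were well covered, with 39939 counts for Plin4, 4039 for Fabp4 and 1014 for Lipe.

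In fed 24 h against fed 3 h cells, 14 of these 28 genes were higher and 6 lower (median 0.13). Fabp4 (log2 1.46), Acss2 (1.26) and Scd1 (0.98) were the largest rises among those with at least 5 CPM, and Angptl4 (-0.75) the largest fall.

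Among other activators of adipogenesis, 35 of 38 were tested, with 9 higher and 3 lower in fed 24 h against unfed cells (median log2 0.07) and 7 higher and 14 lower in fed 3 h against unfed cells (median -0.07). These were 25.7% and 8.57% of the list at 24 h, where all tested genes had 14.9% and 15.9%, and 20.0% and 40.0% at 3 h, where they had 25.1% and 25.5%. Bmp4, a secreted factor that commits stromal cells to the fat lineage, had 201 ± 2.83 CPM in fed 24 h cells, 36.7 ± 3.73 CPM in fed 3 h cells and 164 ± 19.8 CPM in unfed cells (SD, n = 3 each). It fell in fed 3 h against unfed cells (log2 -2.16, adjusted p = 3.29e-11) and rose in fed 24 h against unfed cells (log2 0.29, adjusted p = 0.00839), a rise that missed the threshold without unfed replicate 3 (adjusted p = 0.0516). Lpin1, a phosphatidate phosphatase and coactivator, fell at 3 h as well (log2 -1.13, adjusted p = 1.9e-09) and differed by log2 0.12 at 24 h (adjusted p = 0.137). Klf5, an early Krüppel-like activator, rose to 13.6 ± 2.31 CPM in fed 3 h cells against 4.92 ± 1.86 CPM in unfed cells (log2 1.47, adjusted p = 1.19e-05). At 24 h Klf5 was lower than in unfed cells, at 2.63 ± 0.235 CPM (log2 -0.90, adjusted p = 0.0057). Egr2, a zinc finger activator, went the other way, with a rise at 24 h (log2 0.63, adjusted p = 0.000534) and a fall at 3 h (log2 -1.45, adjusted p = 1.53e-07) against unfed cells. Creb1, which encodes the cyclic AMP response factor CREB, fell at 24 h (log2 -0.40, adjusted p = 9.3e-05) and at 3 h (log2 -0.35, adjusted p = 5.88e-05). Rxra, the partner of PPARG, fell at 3 h (log2 -0.38, adjusted p = 1.74e-06) and at 24 h (log2 -0.14, adjusted p = 0.0156), and the 24 h call was lost without fed 24 h replicate 1 or 3. In fed 24 h against fed 3 h cells 17 were higher and 8 lower (median 0.14).

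Among inhibitors of adipogenesis, 41 of 46 were tested, and calls went in both directions. At 24 h 14 were higher and 4 lower against unfed cells (median log2 0.05), in fed 3 h against unfed cells 17 were higher and 11 lower (median 0.04), and in fed 24 h against fed 3 h cells 17 were higher and 16 lower (median -0.03). These were 34.1% and 9.76% of the list at 24 h, where all tested genes had 14.9% and 15.9%, 41.5% and 26.8% at 3 h, where they had 25.1% and 25.5%, and 41.5% and 39.0% between the times, where they had 30.8% and 30.2%. The 4 lower at 24 h became 2 without fed 24 h replicate 1 or unfed replicate 2. The roles of some members of this list, Dusp1 among them, are not settled, so the counts describe the list as made. Dusp1, a MAP kinase phosphatase gene, had 199 ± 12.6 CPM in fed 24 h cells against 68.4 ± 4.04 CPM in unfed cells (log2 1.54, adjusted p = 5.88e-08), and rose less in fed 3 h against unfed cells (log2 0.45, adjusted p = 0.00027). Klf2, a Krüppel-like repressor of Pparg, rose at 24 h (log2 0.86, adjusted p = 5.04e-06) and fell at 3 h (log2 -0.64, adjusted p = 1.22e-05), both against unfed cells. Inhba, the activin A subunit gene, had the opposite order, with 39.0 ± 2.71 CPM in fed 24 h cells, 166 ± 22.6 CPM in fed 3 h cells and 62.1 ± 10 CPM in unfed cells. It fell at 24 h (log2 -0.67, adjusted p = 0.000314) and rose at 3 h (log2 1.42, adjusted p = 2.96e-08).

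A list of other zinc finger and EBF genes had 8 of 11 genes tested. It holds Zfp36, which encodes an RNA-binding protein and is no close relative of these factors, so the counts describe the list as made. Zfp36 differed by log2 0.92 in fed 24 h against unfed, -1.27 in fed 3 h against unfed and 2.18 in fed 24 h against fed 3 h cells. Each was the largest change among the called genes of this list with at least 5 CPM. Against unfed cells at 24 h, 4 were higher and 2 lower (median log2 0.11), in fed 3 h against unfed cells 3 were higher and 3 lower (median -0.06), and in fed 24 h against fed 3 h cells 4 were higher and 3 lower (median 0.20). Ebf3, a relative of Ebf1, fell in fed 3 h against unfed cells, to 30.4 ± 1.95 CPM against 42.8 ± 1.29 CPM (log2 -0.49, adjusted p = 3.67e-06), and rose in fed 24 h against unfed cells, to 51.2 ± 2.77 CPM (log2 0.26, adjusted p = 0.00271). Ebf2 had 0 counts. Zfp521, which encodes an antagonist of EBF1 and ZFP423 in adipogenesis, had 30.9 ± 1.14 CPM in fed 24 h cells, 15.3 ± 1.02 CPM in fed 3 h cells and 25.5 ± 1.59 CPM in unfed cells. It rose at 24 h (log2 0.28, adjusted p = 0.00299) and fell at 3 h (log2 -0.73, adjusted p = 2.05e-07) against unfed cells. The activator Zfp423 and the antagonist Zfp521 thus had calls in the same direction at both times.

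Of the other C/EBP family genes and partners, 4 of 6 were tested. In fed 3 h against unfed cells 3 were higher (Ddit3, log2 0.59, Atf4, log2 0.33, and Cebpz, log2 0.22) and Cebpg was lower (log2 -0.19), with a median of 0.27. Ddit3 encodes CHOP, an inhibitory C/EBP partner of the stress response. In fed 24 h against unfed cells Ddit3 was higher (log2 0.28, adjusted p = 0.0138) and Cebpg lower (log2 -0.19, adjusted p = 0.00641), and the Ddit3 call was lost without fed 24 h replicate 1. The count of 1 higher at 24 h became 2 without fed 24 h replicate 2 or unfed replicate 2. Against fed 3 h cells, Ddit3, Cebpz and Atf4 were lower in fed 24 h cells and Cebpg was not called (median -0.24).

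Around Lpl and Plin2, the partners of LPL and lipoprotein receptors had 21 of 31 genes tested. Against unfed cells at 24 h, 3 were higher and 3 lower (median log2 -0.02), in fed 3 h against unfed cells 6 were higher and 5 lower (median -0.06), and in fed 24 h against fed 3 h cells 9 were higher and 7 lower (median 0.07). At 24 h these were 14.3% and 14.3% of the list, against 14.9% and 15.9% of all tested genes, and at 3 h 28.6% and 23.8%, against 25.1% and 25.5%, so both are near the shares over all genes. Single libraries moved these counts: the 3 higher at 24 h became 6 without unfed replicate 1, and the 3 lower became 5 without fed 24 h replicate 2 or unfed replicate 1 and 1 without fed 24 h replicate 3. The 7 lower in fed 24 h against fed 3 h cells became 4 without fed 24 h replicate 3 or fed 3 h replicate 1. Lmf1, which encodes the factor that folds LPL into its active form, had 21.8 ± 1.15 CPM in fed 24 h cells, 18.0 ± 1.12 CPM in fed 3 h cells and 19.9 ± 1.74 CPM in unfed cells. It was called in fed 24 h against fed 3 h cells (log2 0.28, adjusted p = 0.00287). Gpihbp1, whose product carries LPL in capillaries, and Apoc2, its activating apolipoprotein, had 0 counts in all libraries.

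Lipid droplet coat and turnover genes had 26 of 32 tested, with 3 higher and 2 lower in fed 24 h against unfed cells (median log2 0.01), 5 higher and 13 lower in fed 3 h against unfed cells (median -0.11) and 12 higher and 8 lower in fed 24 h against fed 3 h cells (median 0.08). At 3 h these were 19.2% and 50.0% of the list, against 25.1% and 25.5% of all tested genes. Plin1, Plin4, Lipe, Dgat1 and Agpat2 were among the genes lower at 3 h and also stand in the list of PPARG targets. Lpin1, also lower, stands among the activators as well, so the share lower is not separate from the counts of those lists. The 3 higher at 24 h became 6 without unfed replicate 1, and the 2 lower became 1 without fed 24 h replicate 1, unfed replicate 2 or unfed replicate 3. Plin3 and Plin4, relatives of Plin2 that also coat droplets, fell in fed 3 h against unfed cells, whereas Plin2 rose. Plin3 had 73.2 ± 0.870 CPM in fed 3 h cells against 93.1 ± 2.97 CPM in unfed cells (log2 -0.35, adjusted p = 7.22e-06). Plin4 had 72.0 ± 5.52 CPM in fed 3 h cells against 95.5 ± 2.09 CPM in unfed cells (log2 -0.41, adjusted p = 7.19e-05). These 2 genes were chosen as relatives of Plin2 after their values were seen. Among genes taken by size, G0s2, which encodes an inhibitor of the droplet lipase, rose in fed 3 h against unfed cells (log2 0.80, adjusted p = 1.76e-05), and Acsl3, an acyl-CoA synthetase gene, fell (log2 -0.87, adjusted p = 3.19e-08). At 24 h G0s2 was not called (adjusted p = 0.982), and the rise of Acsl3 (log2 0.17, adjusted p = 0.0488) was lost in 9 of 18 alternatives.

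**Figure D4:**
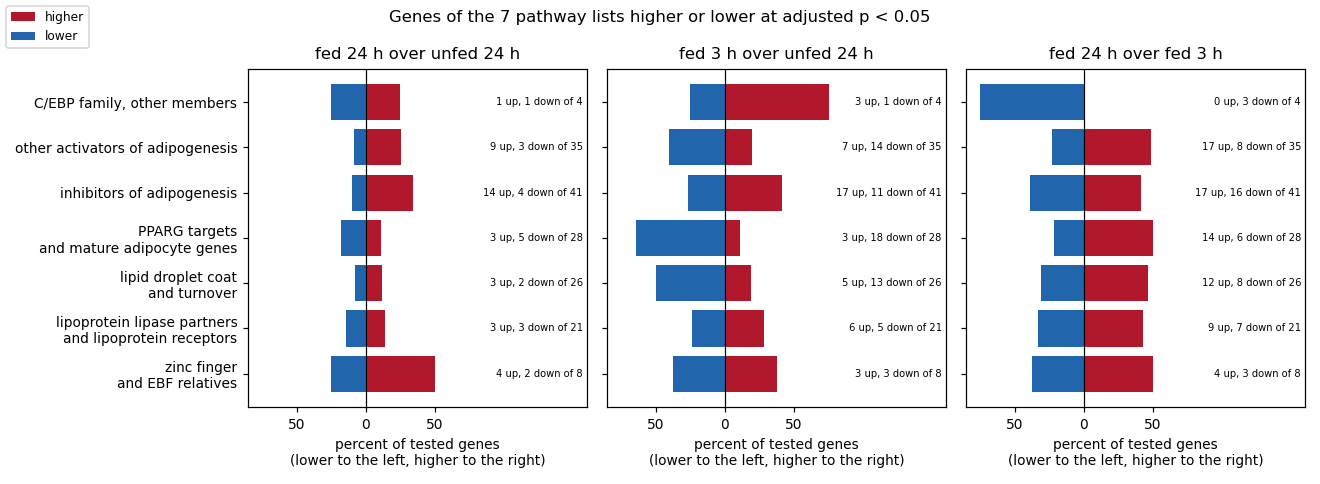
Percent of the tested genes of each of 7 lists called higher (to the right of 0) or lower (to the left) in the 3 comparisons. In fed 3 h against unfed cells, 18 of 28 PPARG targets and mature fat cell genes were lower and 3 higher (64.3% and 10.7%), where all tested genes had 25.5% lower and 25.1% higher.

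Markers of other cells and measures of RNA quality moved with some of these results. Summed neutrophil markers were 4.29 to 5.30 CPM in fed 24 h libraries, 1.03 to 1.70 CPM in fed 3 h libraries and 2.92 to 3.88 CPM in unfed libraries, nearly all from Camp and Mmp9. That order was shared with Lpl, Zfp423 and Ebf1. The markers are mouse genes and the meal was human, so their sum does not measure the meal. Summed macrophage markers were 24.7 to 28.1 CPM in fed 24 h, 27.9 to 28.9 CPM in fed 3 h and 23.3 to 25.4 CPM in unfed libraries. Summed endothelial markers were 0.375 to 0.658 CPM in fed 24 h, 0.320 to 0.587 CPM in fed 3 h and 0.144 to 0.453 CPM in unfed libraries. Summed mature fat cell markers, mostly Fabp4, were 12.2 to 13.1 CPM in fed 24 h, 3.79 to 5.28 CPM in fed 3 h and 9.95 to 11.2 CPM in unfed libraries. Mitochondrial genes took 1.95 ± 0.233% of counts in fed 24 h, 1.40 ± 0.248% in fed 3 h and 1.56 ± 0.0711% in unfed libraries. The ribosomal RNA-linked genes Gm42418 and Gm26917 took 0.298 ± 0.0838% in fed 24 h, 0.149 ± 0.0865% in fed 3 h and 0.102 ± 0.0125% in unfed libraries (SD, n = 3 each). The part of these measures in the results was not tested, except that a fit without the mitochondrial and ribosomal RNA-linked genes kept all calls of the 10 genes. In bulk RNA, fewer cells that express a gene and less RNA per cell cannot be told apart.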

How the data were processed

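The authors deposited whole-number read counts for each mouse symbol in 9 libraries, neither normalized nor pooled, with 0 unused sample columns. STAR 2.7.0f, Subread 1.6.4 and MultiQC 1.7 are named, with GRCm38.p6 and GRCh38.p13, per the submitters' processing notes. Neither annotation nor strand setting is given in the sources used here. Per the labels' protocols the library kit is either a stranded mRNA kit with 50 ng of RNA or SMART-Seq v4 with 1 ng, so strand is unresolved and overlapping genes are uncertain. In 26 rows the symbol had become a date. Other copies or overlaps of the 10 genes were looked up in GENCODE M21 (GRCm38), which also gave coordinates and transcript lengths.

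Counts were tested in R 4.3.3 by edgeR 4.0.16 (quasi-likelihood F-test), with TMM scaling, filterByExpr (13568 genes kept) and 1 fit of all 9 libraries by group. The biological coefficient of variation was 0.0536 in common. Benjamini-Hochberg adjustment of p-values ran over all tested genes, with calls under 0.05. CPM values are mean ± SD of 3 libraries, and SE and 95% intervals are those of the log2 fold change. The variance between replicates was 6.55 to 7.58 times that of counting alone, as chi-square over its degrees of freedom, pooled over genes. The code was tested on simulated data. Alternatives were limma 3.58.1 (voom), DESeq2 1.42.0 (its size factors and its Wald test), other filters, the compared libraries alone, a replicate block and each library left out. A fit on library totals and a fit without mitochondrial and ribosomal RNA-linked genes were added after seeing the data. In each list and comparison, the rule named up to 3 called genes with the largest change in each direction among those at 5 CPM or more in the higher group. The 10 genes and the lists were chosen with earlier results of these data known. Motifs were read from RefSeq promoter windows.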

Additional observations from a re-analysis of the deposited data

Results flagged for a closer look

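Of the 10 genes, 4 were called in opposite directions against unfed cells at the 2 times, higher at 24 h and lower at 3 h. Of all tested genes, 14.9% were higher at 24 h and 25.5% lower at 3 h, and the share with both calls was not counted. The 24 h call of Cebpa was lost without fed 24 h replicate 2, unfed replicate 2 or unfed replicate 3. In fed 24 h against fed 3 h cells the difference was log2 1.31 for Cebpa, log2 0.63 for Ebf1, log2 1.60 for Zfp423 and log2 1.53 for Lpl, all called with edgeR. That comparison is the difference of the 2 by which these genes were picked, so it adds no separate evidence. Both fed groups were set against the same unfed libraries, collected at 24 h, so the 3 h change holds hours in culture as well as feeding.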

How the results depend on the processing

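Over 18 alternatives, 2 of them added after seeing the data, 525 of 534 log2 fold changes of the 10 genes kept their direction and their side of the threshold. The 3 that lost a call were Cebpa and the 2 that gained one were Cebpb, given in the report. Signs reversed in 4 uncalled cases: Zfp467 in fed 24 h against unfed cells, with a range of -0.158 to 0.116 on leaving out each library, and Cebpb in fed 24 h against fed 3 h cells, with a range of -0.0525 to 0.0829. Genes called lower in fed 24 h against unfed cells numbered 1426 to 2241 on leaving out each library, lowest without fed 24 h replicate 1, against 2159 with all libraries. The stricter filter left out Klf15 and Zfp467, and 7 of the 10 genes were then called at 3 h. Of 2484 log2 fold changes of list genes, 63 lost their call, and of 756 list counts 20 moved by over 1.5 times. Most were counts of 1 to 5 genes in fed 24 h against unfed cells, such as LPL partners called higher, 3 with all libraries and 6 without unfed replicate 1. No scaling moved the median over all genes by more than 0.0522 (log2). Same-numbered libraries correlated at -0.163 to 0.0578 in their deviations from group means, and not every library correlated best with its own number. No pairing by number was seen, but so few libraries per group cannot exclude one. A replicate block gave 1901 genes higher and 2010 lower in fed 24 h against unfed cells, against 2017 and 2159 without it, and 4 of the 10 genes called. Depth limits Klf15 and Zfp467, whose libraries held 2 to 49 counts.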
